A study of Mus musculus with 22 samples.

Results

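The genes described here are 10 immediate early genes of neurons, Fos, Fosb, Fosl2, Junb, Egr1, Egr2, Arc, Nr4a1, Nr4a2 and Npas4, measured in the hypothalamus of lean mice given celastrol or its vehicle. They were taken by name from the array's gene annotation. It gave each of them exactly 1 probe set (10 of 23492 probe sets, 10 of 18704 genes). The rule uses no measured value, but the genes were chosen with earlier results of these data known. Celastrol is a triterpenoid from the thunder god vine. The mice were male C57BL/6J, 8 weeks old, lean and kept on normal chow for 2 weeks. The times after the start of intraperitoneal injection were 6 h, 1 day and 4 days, and the agent was celastrol or the solvent dimethyl sulfoxide (DMSO, 25 µl per day in the protocol text). The 22 arrays were 4 of celastrol at 6 h, 3 of celastrol at 1 day, 3 of celastrol at 4 days, and 4 of DMSO at each of these times. A dose of 250 µg per kg is given beside the 6 h celastrol treatment, while for 1 and 4 days a volume of 100 µl is given, so the dose at the later times was not given in the sources used here. Arrays of animals without an injection were not analysed here, so all groups share the injections.

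The values are log2 intensities that the authors made with RMA (robust multi-array averaging). Fold changes are 2 to the power of the log2 difference. Labels call the samples biological replicates without saying whether each is a single animal or a pool. The p-values measure only the spread between these samples, which includes any technical spread. Array medians ranged from 8.58 to 8.66 on the log2 scale, and each array correlated with its group at 0.994 to 0.998 on average. The lowest of these correlations belonged to celastrol 1 day replicate 2 and DMSO 1 day replicate 1. Of 15 hypothalamus markers measured, 12 lay above the array median on all 22 arrays, among them Pmch, Hcrt, Avp and Oxt, and so did 12 of 12 neuron markers. Growth hormone, Gh, a pituitary gene, ranged from 7.52 to 11.48 across arrays. The number of arrays limits the precision of every value below. In bulk tissue, fewer cells that express a gene and less of its RNA per cell cannot be told apart.

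Immediate early genes are switched on within minutes of synaptic activity or growth factor signals, without new protein synthesis. Calcium and cyclic AMP act on them through the transcription factor CREB, and growth factors through serum response factor. Their RNAs are short lived, so their level in a tissue reflects recent stimulation, and in the hypothalamus Fos is widely used to map neurons active in feeding, stress and fluid balance. The Fos and Jun proteins pair to form the transcription factor AP-1, the Egr proteins are zinc finger factors, Nr4a1 and Nr4a2 are orphan nuclear receptors, Npas4 is a neuron-specific factor induced by calcium entry, and Arc is a synaptic protein that controls AMPA receptor removal.

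Upstream sequences are shown because CREB acts on many immediate early genes through cAMP response elements, some of them near the start site. Of the 10 genes, 8 had windows in the RefSeq promoter table of build GRCm38.p6, and the 250 bases before each start were searched on both strands. The core of the element, TGACG on either strand, was found in 7 of these 8 genes (Fos, Fosb, Junb, Egr2, Nr4a1, Nr4a2 and Npas4), against 19.8% of all 27025 genes with a window. The stretches below run 5′ to 3′ on the gene's strand, from 10 bases before the first core to 10 after the last, and capitals mark the core, written CGTCA where it lies on the other strand.
Fos chr12:85473751-85473838, plus strand: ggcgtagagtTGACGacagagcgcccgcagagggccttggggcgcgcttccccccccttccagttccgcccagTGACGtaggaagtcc
Fosb chr7:19310091-19310115, minus strand: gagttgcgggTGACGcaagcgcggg
Junb chr8:84978840-84978864, minus strand: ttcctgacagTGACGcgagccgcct
Nr4a1 chr15:101266603-101266820, plus strand: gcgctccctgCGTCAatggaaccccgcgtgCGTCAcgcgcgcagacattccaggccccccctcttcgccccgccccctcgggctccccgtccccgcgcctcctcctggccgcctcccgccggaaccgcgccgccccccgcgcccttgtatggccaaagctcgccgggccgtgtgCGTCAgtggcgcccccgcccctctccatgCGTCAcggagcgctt
Nr4a2 chr2:57124100-57124213, minus strand: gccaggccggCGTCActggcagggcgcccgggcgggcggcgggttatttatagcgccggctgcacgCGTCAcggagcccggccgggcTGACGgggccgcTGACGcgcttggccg
Npas4 chr19:4990126-4990160, minus strand: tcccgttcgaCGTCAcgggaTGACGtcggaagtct
Nr4a1 and Nr4a2 had 4 cores each, Fos and Npas4 had 2, and Fosb and Junb had 1. Egr2 had 5 windows, of which 3 held the core, at 2 distinct positions, and its sequence is not printed here. The 8-letter element TGACGTCA was in 0 of 8, against 1.77% of all genes. The Egr site GCGGGGGCG was in 3 of 8 (Fosb, Fosl2 and Nr4a1) against 2.93%, and the CArG box of serum response factor was in 1 (Egr2) against 1.62%. The AP-1 site TGANTCA and the Nr4a site AAAGGTCA were in 0 of 8, against 7.82% and 1.55% of all genes. Some of these letters overlap, as TGACG lies within TGACGTCA. A match describes the letters in this window only.

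Egr1, Nr4a1 and Nr4a2 lay above the array median on all 22 arrays, and Fosl2 and Arc on 17 of 22. Fos, Fosb, Junb, Egr2 and Npas4 lay below it on all 22. A gene entered the test across genes if it was above the array median on at least 3 arrays, so 5 of the 10 genes were tested among 9880 genes and the other 5 lay below the filter. For those 5, differences and intervals come from the same model fitted without the filter to all 18704 genes, and the test given is an exact two-sided permutation test over arrays. Detection calls were not used here, so whether a dim probe set lay above its background is not known. Over the 22 arrays Fos ran from 6.91 to 7.78, Fosb from 7.82 to 8.20, Junb from 7.77 to 8.31, Egr2 from 6.88 to 7.38 and Npas4 from 7.77 to 8.45 on the log2 scale. The tested genes ran from 8.44 to 8.83 for Fosl2, 8.72 to 9.26 for Egr1, 8.49 to 8.87 for Arc, 8.64 to 9.10 for Nr4a1 and 9.69 to 10.47 for Nr4a2. Levels of different probe sets cannot be set against each other.

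**Figure D1:**
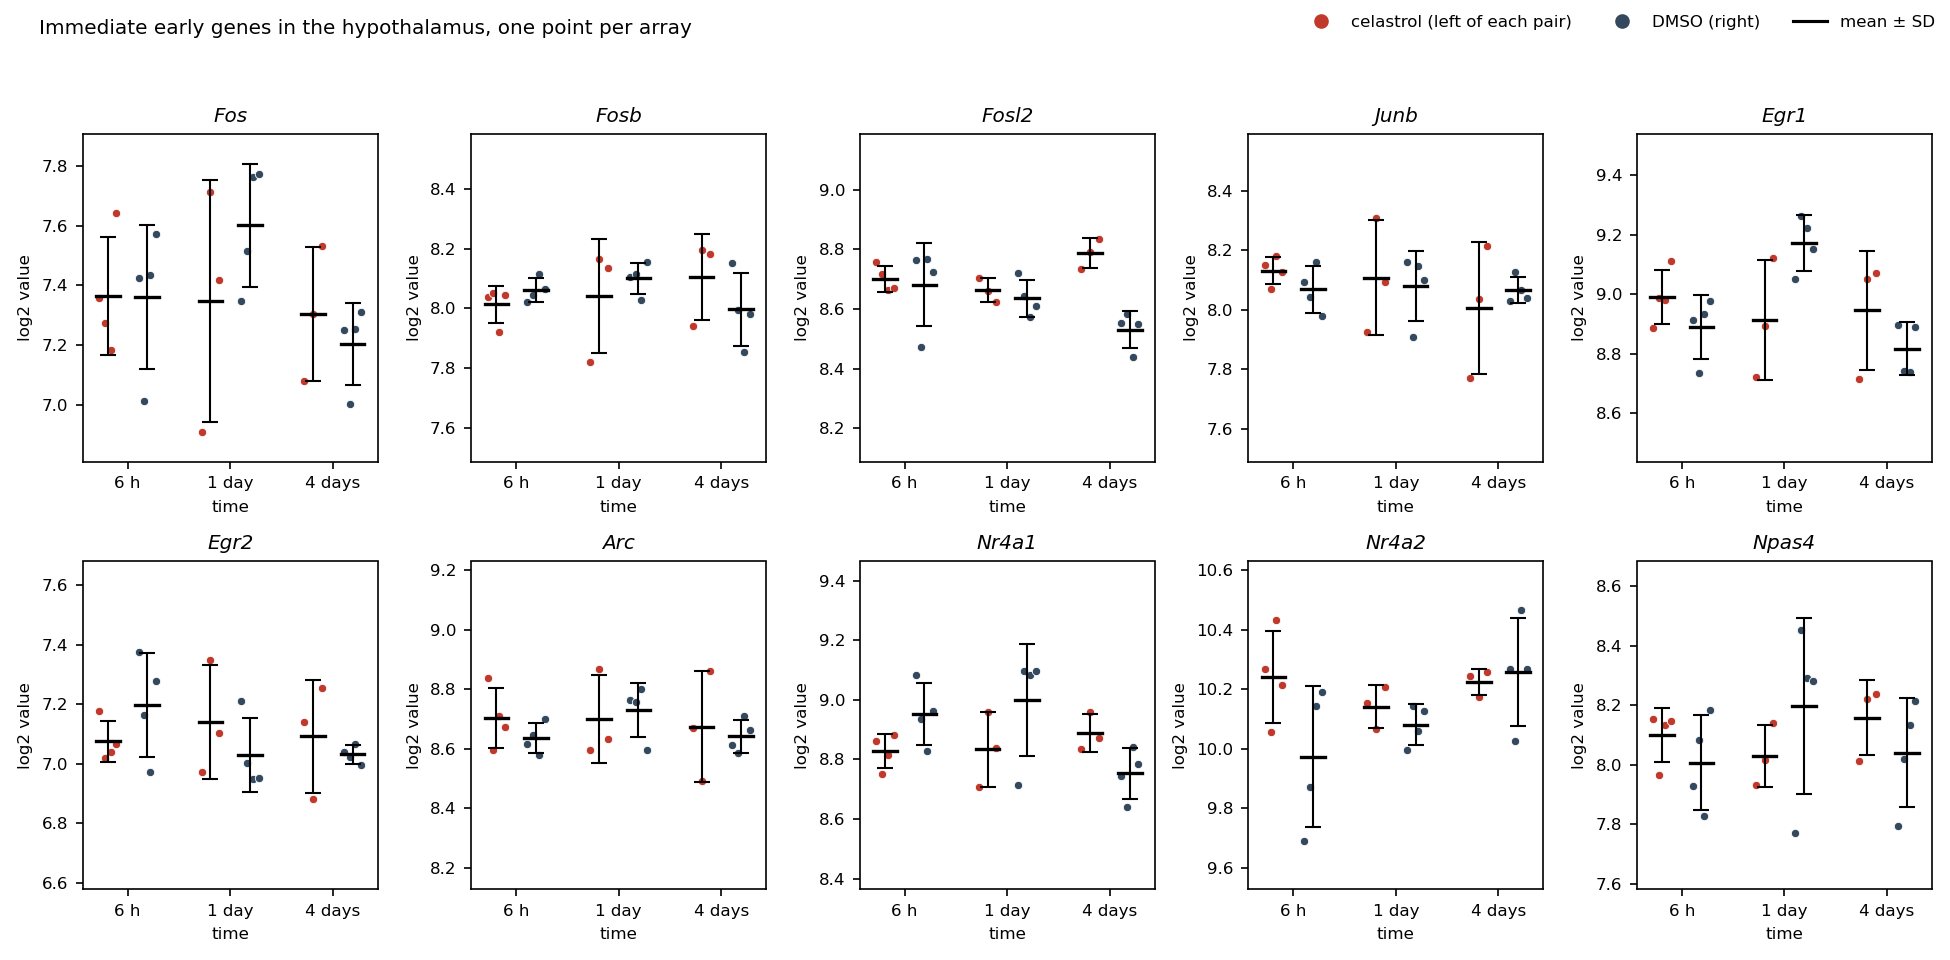
Log2 value (vertical axis, 1.1 log2 units in every panel) of the 10 genes on each of the 22 arrays, by time, with celastrol left of DMSO; bars are the mean and SD of 3 or 4 arrays. The groups overlap at 6 h and 1 day for all 10 genes, and at 4 days the 3 celastrol arrays lie above the 4 DMSO arrays for Fosl2.

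After 6 h of celastrol the largest difference among the 10 genes was that of Nr4a2, the orphan receptor needed for midbrain dopamine neurons. Nr4a2 had log2 values of 10.27, 10.06, 10.43 and 10.21 on the celastrol arrays, against 9.69, 9.87, 10.14 and 10.19 on the DMSO arrays. All 4 celastrol values lay above the DMSO mean, while the 2 higher DMSO values lay among them. The difference was 0.27 (SE 0.095, 95% interval 0.072 to 0.46, 1.20-fold), with an adjusted p of 0.895 (limma) and an exact permutation p of 0.143. Without DMSO 6 h replicate 1, the lowest array, it was 0.17. At 6 h 0 of the 5 tested genes passed at an adjusted p under 0.05 (limma, Benjamini-Hochberg over 9880 genes), as did 0.0% of all genes. At an unadjusted p under 0.05 there was 1, Nr4a2, against 5.11% of all genes. All 10 genes overlapped between the groups, which did not overlap for 2.76% of genes tested. Astrocyte markers were higher on the celastrol arrays in 9 of 10 at 6 h, with 0 called and 1 at an unadjusted p under 0.05 (limma), a median difference of 0.084 and a list mean of 11.26 to 11.41 on celastrol and 11.20 to 11.25 on DMSO arrays. Of 8 microglia and macrophage markers 3 had an unadjusted p under 0.05 at 6 h (limma), all higher, with 0 called, a median of 0.040 and a list mean of 9.56 to 9.67 on celastrol and 9.49 to 9.56 on DMSO arrays. Their part in the Nr4a2 difference was not tested.

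Its relative Nr4a1, also called Nur77, had the opposite sign. Nr4a1 had values of 8.86, 8.75, 8.82 and 8.88 on the celastrol arrays and 9.08, 8.94, 8.83 and 8.96 on the DMSO arrays at 6 h. All 4 celastrol values lay below the DMSO mean, with a difference of -0.12 (SE 0.074, adjusted p = 0.895, limma). Among the AP-1 genes the 6 h differences were 0.0044 for Fos, -0.048 for Fosb, 0.020 for Fosl2 and 0.063 for Junb. Fos, the gene most used as an activity marker, had 7.36, 7.27, 7.18 and 7.64 on the celastrol arrays and 7.43, 7.01, 7.43 and 7.57 on the DMSO arrays. The Fos groups spanned nearly the same range, with an interval of -0.31 to 0.32. Egr1 differed by 0.10 and Egr2, which drives myelination in Schwann cells, by -0.12, both with intervals that held 0. Arc differed by 0.069 and Npas4 by 0.093, with intervals of -0.076 to 0.21 and -0.15 to 0.33. For the 5 genes below the filter the exact permutation p at 6 h lay between 0.257 and 0.971. Over the 10 genes, 7 differences were above 0 with a median of 0.041, beside a median of 0.020 and 65.4% above 0 among all genes tested. Over all 18704 genes, dim ones included, the median was 0.0033 with 52.0% above 0.

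After 1 day the largest difference was in Egr1, the zinc finger factor also known as Zif268. Egr1 had 8.72, 8.89 and 9.12 on the 3 celastrol arrays, against 9.05, 9.26, 9.22 and 9.15 on the DMSO arrays. The 3 celastrol values lay below the DMSO mean, and the highest of them lay between the lowest and the next DMSO value. The difference was -0.26 (SE 0.089, 95% interval -0.44 to -0.074, 1.20-fold lower), with an adjusted p of 0.698 (limma) and an exact permutation p of 0.0857. Without celastrol 1 day replicate 1, the lowest array, it was -0.16. At 1 day 0 of the 5 tested genes passed, as did 0.0% of all genes, and 1, Egr1, had an unadjusted p under 0.05, against 6.66%. The groups overlapped for all 10 genes, against 6.17% of genes tested that did not overlap.

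Fos had 6.91, 7.71 and 7.42 on the celastrol arrays and 7.35, 7.52, 7.77 and 7.78 on the DMSO arrays at 1 day. Celastrol replicate 1 was the lowest of the 7 arrays while replicate 2 lay above 2 of the DMSO arrays, and the interval of the difference of -0.25 ran from -0.59 to 0.086 (exact permutation p = 0.343). Without celastrol 1 day replicate 1 the Fos difference was -0.035, and without replicate 2 it was -0.44. Nr4a1 had 8.71, 8.96 and 8.84 on the celastrol arrays and 8.72, 9.10, 9.08 and 9.10 on the DMSO arrays. DMSO replicate 1 stood at the level of the lowest celastrol array, and the other 3 DMSO arrays lay above all 3 celastrol arrays. The difference of Nr4a1 was -0.16 (SE 0.080, adjusted p = 0.720, limma), with -0.26 without DMSO 1 day replicate 1 and -0.10 without celastrol 1 day replicate 1. Without the 2 least typical arrays it was -0.32 (adjusted p = 0.379, limma). Npas4 differed by -0.17 (-0.43 to 0.090) and Egr2 by 0.11 (-0.090 to 0.32). Fosb, Fosl2, Junb, Arc and Nr4a2 differed by -0.059, 0.028, 0.028, -0.031 and 0.061, each with an interval that held 0. The exact permutation p of the 5 genes below the filter lay between 0.343 and 0.914. Of the 10 differences 4 were above 0, with a median of -0.045, beside -0.014 and 41.2% above 0 among all genes tested. Over all 18704 genes the median was 0.0012 with 50.6% above 0.

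After 4 days, Fosl2 had the clearest difference of the 10 genes. Fosl2 encodes Fra-2, a Fos family subunit of AP-1 that is made later and lasts longer than Fos. Its log2 values were 8.74, 8.79 and 8.83 on the celastrol arrays, against 8.55, 8.58, 8.44 and 8.55 on the DMSO arrays. All 3 celastrol values lay above all 4 DMSO values. The difference was 0.26 (SE 0.058, 95% interval 0.14 to 0.38, 1.19-fold), and the exact permutation p of 0.0286 is the smallest that 3 against 4 arrays can give. Over all genes it did not pass (adjusted p = 0.149, limma, range over the alternatives 0.0196 to 0.723). It passed with array weights (adjusted p = 0.0196) and without DMSO 6 h replicate 2 (adjusted p = 0.0266), an array that lies outside this contrast but enters the pooled spread and holds the lowest Fosl2 value of its group.

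At 4 days 0 of the 5 tested genes passed, against 0.0506% of all genes (5 genes, 3 higher and 2 lower), and 1, Fosl2, had an unadjusted p under 0.05, against 3.66%. The groups did not overlap for 1 of the 10 genes, against 6.33% of genes tested. All 8 tested microglia and macrophage markers were higher on the celastrol arrays, with 0 called and 4 at an unadjusted p under 0.05 (limma), a median difference of 0.15 and a mean log2 value over the list of 9.68 to 9.74 on celastrol and 9.49 to 9.58 on DMSO arrays. With no filter on level, 1 of the 13 measured, Itgam, an integrin of myeloid cells, passed at 4 days (0.32, SE 0.053, adjusted p = 0.0463, limma). In that fit 3 of all 18704 genes passed at 4 days. Itgam is named after its value was seen. It lay above the array median on 0 celastrol and 0 DMSO arrays, so whether it lay above its background is not known. The part of these markers in the Fosl2 difference was not tested.

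Nr4a1 at 4 days had 8.83, 8.96 and 8.87 on the celastrol arrays and 8.74, 8.64, 8.84 and 8.78 on the DMSO arrays. The 3 celastrol values lay above the DMSO mean, with 1 of them just under the highest DMSO value. Its difference was 0.13 (SE 0.080, exact permutation p = 0.0857), and it did not pass over all genes. Egr1 differed by 0.13 (95% interval -0.056 to 0.31), with celastrol values of 8.72, 9.05 and 9.07 and DMSO values of 8.90, 8.74, 8.74 and 8.89. Celastrol replicate 1 was the lowest of all 7 arrays and the other 2 lay above every DMSO array. Fos, Fosb, Egr2, Arc and Npas4 differed by 0.10, 0.11, 0.060, 0.032 and 0.12. Junb differed by -0.059 and Nr4a2 by -0.032, and the intervals of all 7 of these genes held 0. The exact permutation p of the 5 below the filter lay between 0.343 and 0.686. In all, 8 of 10 differences were above 0 with a median of 0.11, beside 0.0083 and 56.4% among all genes tested. Over all 18704 genes the median was 0.0097 with 56.1% above 0.

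**Figure D2:**
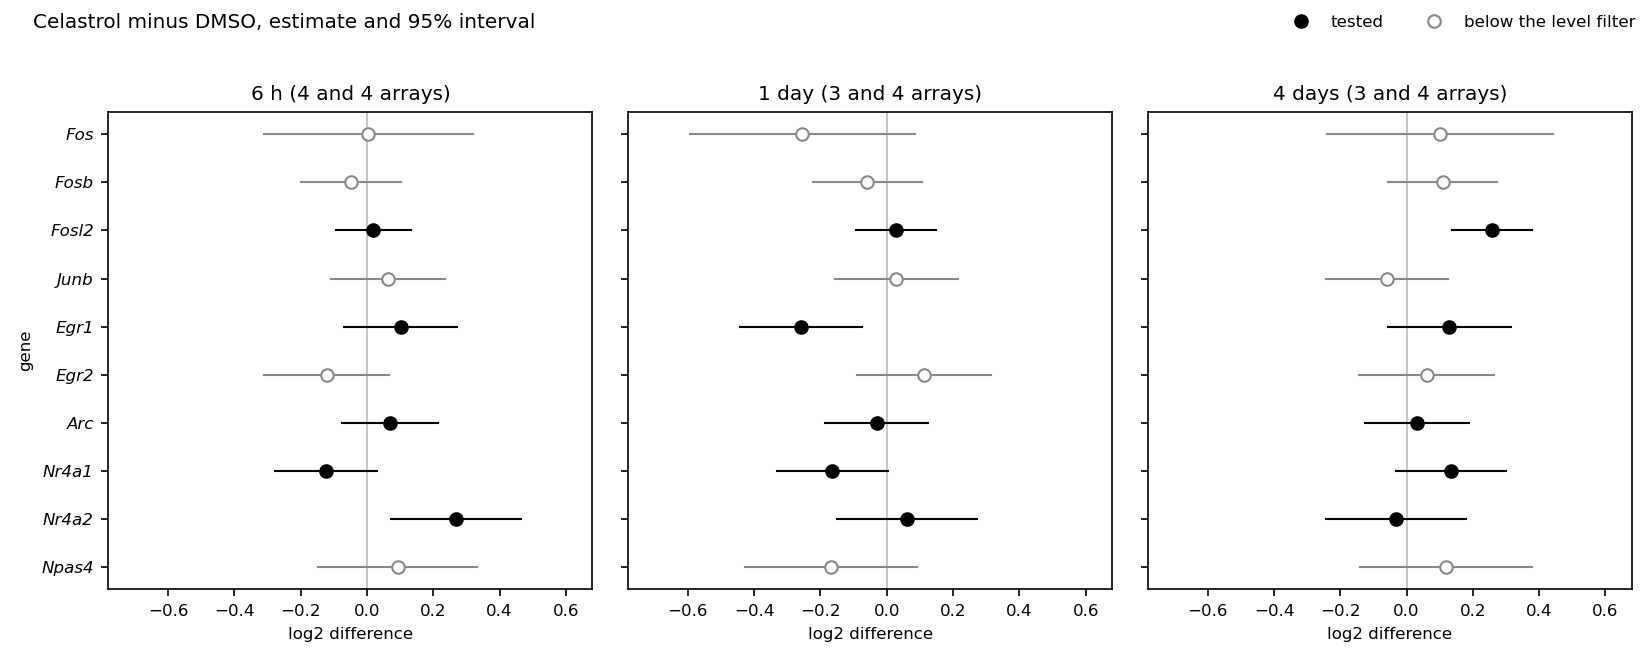
Celastrol minus DMSO (log2, horizontal axis) for the 10 genes at 6 h, 1 day and 4 days, with 95% intervals; filled points are genes tested and open points genes below the level filter. Of 30 intervals, 3 exclude 0, those of Nr4a2 at 6 h (0.27), Egr1 at 1 day (-0.26) and Fosl2 at 4 days (0.26), before any adjustment over genes.

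Over the 30 differences none was further from 0 than 0.27, and the 95% intervals lay between -0.59 and 0.46. For the 5 tested genes the intervals lay between -0.44 and 0.46, so changes beyond 1.38-fold lay outside all of them. These intervals are for single genes and are not adjusted over the 30.

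Averaged over the times with equal weight, 0 of the 5 tested genes passed, against 0.0607% of all genes (6 genes, all higher), and 1 had an unadjusted p under 0.05, against 4.0%. That gene was Fosl2, with an average difference of 0.10 (SE 0.033, adjusted p = 0.744, limma), most of it from 4 days. Nr4a2 averaged 0.10 and Nr4a1 -0.051, and the other 7 genes lay between -0.050 and 0.023.

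Whether the celastrol effect differed between times was tested as a difference of differences. Between 1 day and 6 h, 0 of the 5 tested genes passed, as did 0.0% of all genes, and 1 had an unadjusted p under 0.05, against 8.27%. This was Egr1, whose effect at 1 day minus that at 6 h was -0.36 (SE 0.12, adjusted p = 0.581, limma). Between 4 days and 6 h, 0 passed, as did 0.0% of all genes, and 3 had an unadjusted p under 0.05 (Fosl2 0.24, Nr4a1 0.26, Nr4a2 -0.30), against 3.38%. Between 4 days and 1 day, 0 passed, as did 0.0% of all genes, and 3 had an unadjusted p under 0.05 (Egr1 0.39, Nr4a1 0.30, Fosl2 0.23), against 6.0%. The lowest adjusted p of the 10 genes in these 3 comparisons was 0.581 (limma). The comparisons share the groups of a time, so they are not independent of each other.

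Among the vehicle arrays alone, Egr1 had the widest separation between times of the tested genes. Its DMSO values were 8.91, 8.74, 8.93 and 8.98 at 6 h, 9.05, 9.26, 9.22 and 9.15 at 1 day and 8.90, 8.74, 8.74 and 8.89 at 4 days. The 4 values at 1 day lay above all 8 values of the other two times. The difference between 4 days and 1 day was -0.35 (SE 0.083, 95% interval -0.53 to -0.18, adjusted p = 0.0706, limma, range over the alternatives 0.0163 to 0.193). That between 1 day and 6 h was 0.28 (SE 0.083, adjusted p = 0.153, limma). The exact permutation p was 0.0286 in both, the smallest that 4 against 4 arrays can give. Egr1 passed between 4 days and 1 day with array weights (adjusted p = 0.0163) and with the leading residual component as a covariate (adjusted p = 0.0353).

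Fos had DMSO values of 7.43, 7.01, 7.43 and 7.57 at 6 h, 7.35, 7.52, 7.77 and 7.78 at 1 day and 7.25, 7.001, 7.25 and 7.31 at 4 days, with the same order of means as Egr1. The 4 values at 4 days lay below the 4 at 1 day (difference -0.40, SE 0.15, exact permutation p = 0.0286), and with no filter on level its adjusted p was 0.410 (limma). Nr4a1 had a 4 day minus 1 day difference of -0.25 (SE 0.074, adjusted p = 0.151, limma), with values of 8.74, 8.64, 8.84 and 8.78 at 4 days and 8.72, 9.10, 9.08 and 9.10 at 1 day. It passed with array weights (adjusted p = 0.00753) and without DMSO 1 day replicate 1 (adjusted p = 0.0365), its lowest array at 1 day. At 4 days minus 6 h, Nr4a1 differed by -0.20 (adjusted p = 0.228, limma). For Nr4a2 the difference had the other sign, 0.28 at 4 days relative to 6 h (SE 0.095, adjusted p = 0.190, limma), with values of 10.27, 10.03, 10.47 and 10.27 at 4 days against 9.69, 9.87, 10.14 and 10.19 at 6 h. Without DMSO 6 h replicate 1 it was 0.19. Fosl2 differed by -0.15 at 4 days relative to 6 h (SE 0.054, adjusted p = 0.214, limma).

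**Figure D3:**
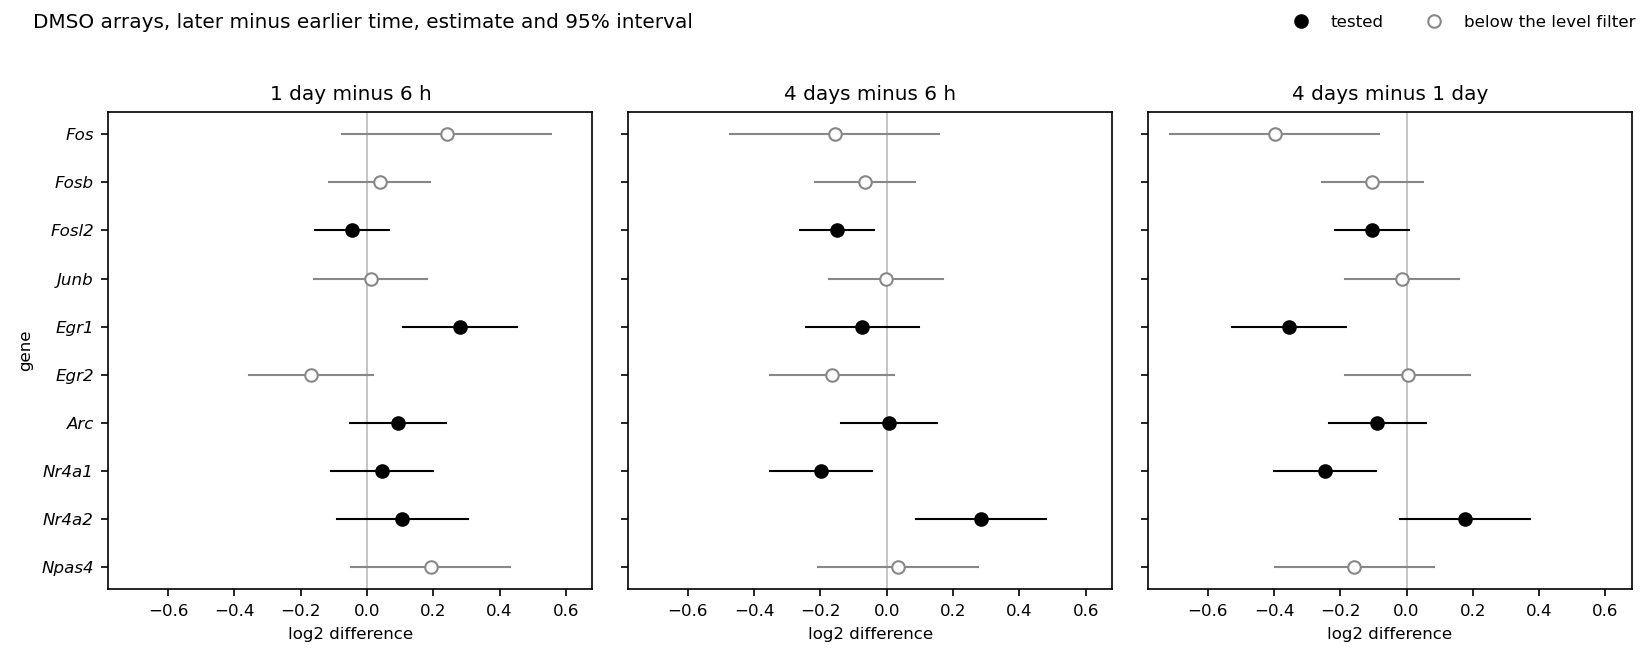
Later minus earlier time among DMSO arrays (log2, horizontal axis) for the 10 genes, with 95% intervals from 4 arrays per time; filled points are genes tested and open points genes below the level filter. The Egr1 point is -0.35 for 4 days minus 1 day and 0.28 for 1 day minus 6 h.

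In the 3 DMSO comparisons 0 of 5 tested genes passed at an adjusted p under 0.05 (limma), against 0.0% of all genes at 1 day relative to 6 h, 0.253% at 4 days relative to 6 h and 0.152% at 4 days relative to 1 day. At an unadjusted p under 0.05 there were 1 (Egr1), 3 (Fosl2, Nr4a1 and Nr4a2) and 2 (Egr1 and Nr4a1) of 5, against 14.1%, 15.3% and 14.7% of all genes. Groups did not overlap for 1 of 10 genes between 1 day and 6 h (Egr1), 0 between 4 days and 6 h, and 2 between 4 days and 1 day (Egr1 and Fos), against 5.98%, 7.56% and 9.8% of genes tested. DMSO arrays at each time also serve as the controls of celastrol at that time. The Egr1 difference of celastrol at 1 day and the vehicle differences around 1 day therefore rest on the same 4 arrays. This sharing applies also to Fosl2 at 4 days and Nr4a2 at 6 h. At 6 h, 1 day and 4 days Fosl2 averaged 8.68, 8.64 and 8.53 on DMSO and 8.70, 8.66 and 8.79 on celastrol arrays. Nr4a2 averaged 9.97, 10.08 and 10.26 on DMSO and 10.24, 10.14 and 10.23 on celastrol arrays. Pituitary markers (3 tested) had a median of -1.24 at 4 days relative to 6 h among DMSO arrays, with 0 called, and their part in the differences was not tested. What else differed between the times, such as the number of injections, cannot be told apart from time.

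Of the remaining genes, Fosb, Junb, Arc, Egr2 and Npas4 had differences between -0.17 (Egr2, 1 day minus 6 h) and 0.19 (Npas4, 1 day minus 6 h), and all of their intervals held 0. For Junb, the partner of Fos proteins in AP-1, the 3 differences were 0.011, -0.0026 and -0.014. Junb values across all 12 DMSO arrays ran from 7.91 to 8.16. Arc values across the same arrays ran from 8.58 to 8.80.

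Several of the 10 genes had a wide spread between replicates for their level class. The SD within groups, pooled over the 6 groups with 16 residual degrees of freedom, had a median of 0.115 over the 5 tested genes, against 0.0758 over all genes tested. Nr4a2 (0.151), Egr1 (0.130), Nr4a1 (0.115) and Arc (0.107) lay at the 97.1, 94.2, 89.8 and 85.8 percentiles of genes tested. Fosl2 was the exception, with 0.0778 at the 53.2 percentile. Among the 8824 genes below the filter the median was 0.124. Fos (0.239) lay at the 98.9 percentile of these and Npas4 (0.179) at the 91.9. Egr2 (0.137) stood at the 64.7, Junb (0.124) at the 49.8 and Fosb (0.107) at the 31.0. A difference of 1 SD in Fos is 1.18-fold.

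**Figure D4:**
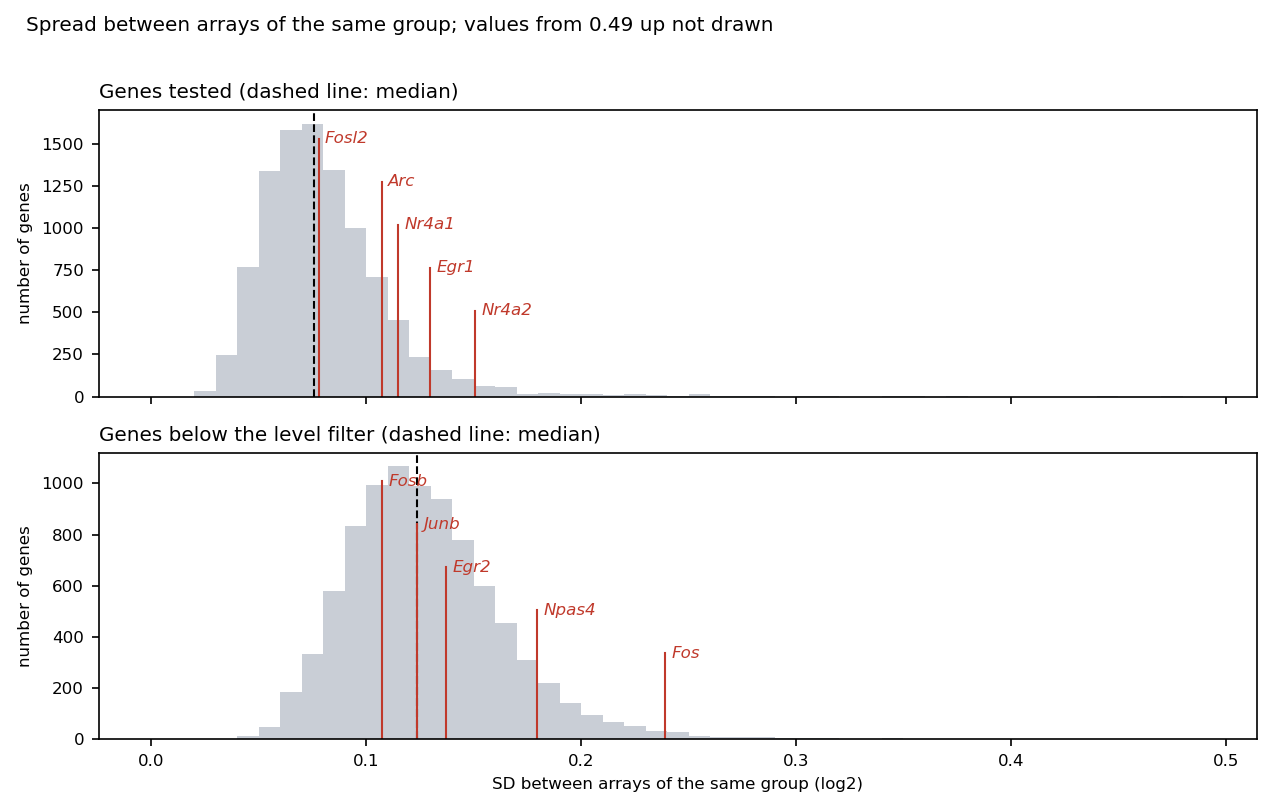
Number of genes (vertical axis) by SD between arrays of the same group (log2, horizontal axis), for genes tested above and genes below the level filter under them, with the 10 genes marked by red lines. Fos, at 0.239, and Nr4a2, at 0.151, lie far right of the dashed medians, and Fosl2, at 0.0778, lies at the median.

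By treatment, the within-group SD was larger on celastrol than on DMSO arrays for 2 of 10 genes at 6 h, 7 at 1 day and 6 at 4 days, against 37.0%, 49.7% and 54.2% of genes tested. The median SD of the 10 genes was 0.0802 on celastrol and 0.123 on DMSO arrays at 6 h, 0.170 and 0.105 at 1 day, and 0.165 and 0.0868 at 4 days. The genes wider in celastrol were Fos, Fosb, Junb, Egr1, Egr2 and Arc at both 1 day and 4 days, Nr4a2 at 1 day, and Fosb and Arc at 6 h. No test was made of the spread, and each celastrol SD at 1 day and 4 days rests on 3 arrays.

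Within the celastrol groups of 1 day and 4 days, single arrays were low or high in most of the 10 genes. Celastrol 1 day replicate 1 had the lowest value of its group in 8 of 10 genes, with a mean deviation from the group means of -0.15, while replicate 2 had the highest in 6. Celastrol 4 days replicate 3 had the highest value in 8 of 10 (mean deviation 0.11) and replicate 1 the lowest in 7 (mean deviation -0.10). Over all genes tested the mean deviations of these 4 arrays lay between -0.025 and 0.018. Among DMSO arrays, DMSO 6 h replicate 4 lay above its group mean in 9 of 10 genes and replicate 2 in 2, against 42.9% and 47.7% of genes tested.

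**Figure D5:**
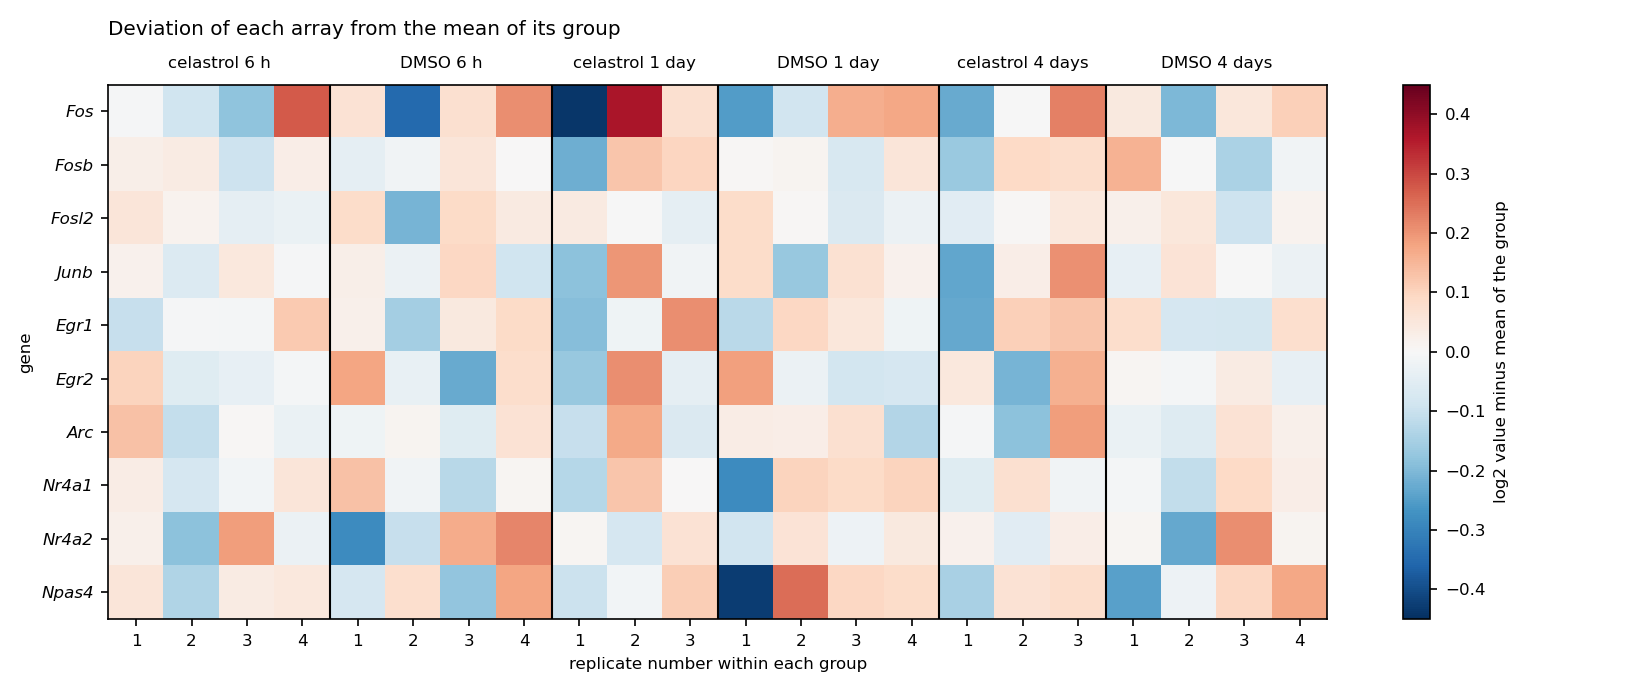
Deviation of the log2 value of each array (columns, by group, with celastrol before DMSO at each time) from the mean of its group for the 10 genes (rows); red is above and blue below the mean. Celastrol 1 day replicate 1 is blue in most rows, and celastrol 4 days replicate 3 is red in 9 of 10 rows.

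Pairs of genes were compared by the correlation of these deviations over the 22 arrays. All 45 pairs were computed, with permutation of arrays within groups (100000 draws). Egr2 and Arc correlated most (Pearson r = 0.72, permutation p = 0.00396; Spearman rho = 0.65, p = 0.00805), with r = 0.65 after leaving out the 2 arrays farthest from the Egr2 median. Adjusted over the 45 pairs these were 0.151 and 0.306, and 0 of 45 pairs passed an adjusted p under 0.05 by either measure. Within times the r of Egr2 and Arc was 0.52 at 6 h, 0.72 at 1 day and 0.92 at 4 days.

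Fos and Egr1 had r = 0.68 (rho = 0.63, permutation p = 0.0100 and 0.0136, adjusted 0.151 and 0.306), which became 0.47 without the 2 arrays farthest in Fos. Fos and Nr4a1 had r = 0.60 (rho = 0.56, permutation p = 0.0100 and 0.0240, adjusted 0.151 and 0.318) and 0.59 without them. Nr4a1 and Npas4 had r = 0.70 (rho = 0.54, permutation p = 0.0181 and 0.0353, adjusted 0.203 and 0.318). That pair rested on 2 arrays, since r was 0.35 without the 2 farthest in Nr4a1. In all, 8 of 45 pairs had r above 0.5 and 33 were above 0, against 6.76% and 56.9% of all pairs of genes tested. Those shares cover tested genes only, while 5 of the 10 genes lay below the filter, so they are not like for like. Each of the 8 pairs held a gene below the filter, and the highest r between tested genes was 0.39 (Egr1 and Nr4a1). Without the 2 arrays farthest in the first gene of a pair, only Egr2 with Arc and Fos with Nr4a1 stayed above 0.5. Fosb and Junb went from 0.51 to -0.12. The lowest r was that of Fosl2 and Npas4 (-0.37). Genes on the same arrays share RNA, labelling and normalization, so the pairs are not independent.

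The genes whose deviations were most like the mean of the 5 tested genes over 22 arrays were, in order of Pearson's r, Ddr1 (0.89), Plpp5 (0.86), Eno2 (0.85), Med25 (0.84), Rgmb (0.84), Hdac11 (0.83), Eml3 (0.81) and Neurl1a (0.81), out of 9656 genes ranked. Ddr1 encodes a collagen receptor and Eno2 the neuronal enolase. These are the top of a ranking over many genes and are given without a test.

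Among other immediate early genes, Ptgs2 and Ier3 rose with celastrol on the average of the times. Both lay above the array median on celastrol arrays alone (Ptgs2 on 5 of 10 and Ier3 on 8 of 10, against 0 of 12 DMSO arrays), so with the filter on level a gene of this kind enters only if it differs. The calls given for them are therefore those of the same model without the filter, adjusted over 18704 genes. In it Ptgs2, the inducible cyclooxygenase, rose by 0.76 (SE 0.098, adjusted p = 0.00123, limma). Ier3, an early response gene that restrains NF-kB signalling and cell death, rose by 0.24 (SE 0.040, adjusted p = 0.0172, limma). Of 47 such genes listed, 45 were measured, and without the filter these 2 passed on the average and 0 fell, among 7 genes called of all 18704. The list was chosen with earlier results of these data known.

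By time, Ptgs2 averaged 8.15 ± 0.43 on celastrol and 7.63 ± 0.09 on DMSO arrays at 6 h (SD, n = 4 each), 8.66 ± 0.29 and 7.86 ± 0.08 at 1 day, and 8.61 ± 0.29 and 7.65 ± 0.19 at 4 days (n = 3 and 4). At 4 days the difference was 0.96, with an adjusted p of 0.0650 without the filter and 0.0443 with it (limma). The filtered call was lost in 16 of 33 alternatives (adjusted p of 0.00208 to 0.279), which were no filter on level, quantile normalization, robust eBayes, the replicate block and leaving out any of 12 single arrays. Ier3 had 8.69 ± 0.09 on celastrol and 8.41 ± 0.06 on DMSO arrays at 1 day (SD, n = 3 and 4). On the average both genes passed in the 32 of 33 alternatives that tested them, and under the stricter filter on level neither was tested. All of these but the fit with no filter kept a filter on level. They are therefore no separate support for genes that enter it through celastrol arrays.

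With the filter, 21 of the 45 genes were tested, and 0 passed at 6 h, 0 at 1 day and 1, Ptgs2, at 4 days (limma). At an unadjusted p under 0.05 there were 2, 4 and 5 of 21, against 5.11%, 6.66% and 3.66% of all genes, and the 5 at 4 days were all higher. Ptgs2 is among these at each time, and Ier3 at 1 day and 4 days. Both entered the filter through celastrol arrays alone, so these filtered counts are no test of the list. Without the filter 0 of the 45 passed at any single time (limma). Their medians were 0.022, 0.021 and 0.053, beside 0.0033, 0.0012 and 0.0097 over all 18704 genes.

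Genes that follow neuronal activity later, through the immediate early factors, were called in no celastrol comparison. Of 26 delayed activity-regulated genes, 25 were measured and 15 tested, with medians of 0.036 at 6 h, -0.087 at 1 day and -0.00011 at 4 days. All genes tested had medians of 0.020, -0.014 and 0.0083. At an unadjusted p under 0.05 (limma) there were 1, 3 and 1 of 15, against 5.11%, 6.66% and 3.66% of all genes. The 1 at 6 h was higher, and those at 1 day and 4 days were lower. Vgf, a secreted neuropeptide precursor, differed by -0.17 at 4 days (adjusted p = 0.9996, limma) and Penk, the enkephalin precursor, by -0.092 at 1 day (adjusted p = 0.720, limma). The kinases, receptors and transcription factors upstream of immediate early genes (27 measured and tested of 34) gave 0 calls (limma), with 1, 0 and 0 at an unadjusted p under 0.05 at 6 h, 1 day and 4 days and medians of 0.022, 0.036 and 0.015. The upstream gene at 6 h was higher, and the same shares of all genes apply. Camk2a and Camkk2, calcium-dependent kinases, averaged differences of 0.042 and 0.054.

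Tested cell type markers showed 0 calls in the 4 celastrol comparisons (limma). At 6 h 5.11% of all genes had an unadjusted p under 0.05 (limma). So did 1 of 10 astrocyte and 3 of 8 microglia and macrophage markers, all higher, and 1 of 3 pituitary markers, lower. At 1 day the share of all genes was 6.66%. At that time 1 of 12 neuron, 1 of 8 microglia and macrophage and 3 of 10 endothelial and mural markers passed this level, all lower. So did 1 of 9 oligodendrocyte markers, higher. At 4 days the share of all genes was 3.66%. At that time 4 of 8 microglia and macrophage and 3 of 10 endothelial and mural markers had an unadjusted p under 0.05 (limma), all higher. So did 1 of 14 hypothalamus markers, lower, and 0 of the neuron, astrocyte, oligodendrocyte, pituitary and choroid plexus markers. At 4 days their medians were -0.022 for 12 neuron markers, 0.013 for 14 hypothalamus markers, -0.012 for 10 astrocyte, -0.025 for 9 oligodendrocyte and 0.058 for 10 endothelial and mural markers, against 0.0083 over all genes. The mean log2 value of the neuron list was 12.17 to 12.21 on celastrol and 12.13 to 12.20 on DMSO arrays at 6 h, 12.14 to 12.18 and 12.17 to 12.20 at 1 day, and 12.16 to 12.19 and 12.18 to 12.20 at 4 days. The microglial complement genes C1qc and C1qa differed by 0.37 and 0.24 at 4 days (adjusted p = 0.0730 and 0.343, limma). Of the endothelial list, Vwf differed by 0.46 and Slco1a4 by -0.096 at 4 days (adjusted p = 0.0709 and 0.9996, limma). Slco1a4 was also lower at 6 h (-0.077) and 1 day (-0.17). The hypothalamus marker Nkx2-2 differed by -0.24 at 4 days (adjusted p = 0.147, limma). Pituitary genes, with 3 tested of 8 measured, had medians of -0.61 at 6 h and 0.32 at 4 days, with a mean log2 value of 7.80 to 8.96 on celastrol and 7.72 to 10.99 on DMSO arrays at 6 h, and the 1 tested choroid plexus gene, Kl, differed by 0.084 at 6 h and 0.073 at 4 days. Their part in the differences of the immediate early genes was not tested.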

How the data were processed

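RNA of the hypothalamus was hybridised to 22 mouse gene arrays, 3 or 4 in each of 6 groups. Deposited values are log2 intensities that the authors summarised per probe set with RMA, per the submitters' processing notes, whose version was not given in the sources used here. All 22 columns were matched to samples by name, and 0 columns belonged to other series. Of 23492 probe sets, 20228 named 1 gene symbol, 1399 several and 1865 none; the first were used, and 809 genes with several probe sets were represented by the one with the highest mean. Genes above the array median on at least 3 arrays (9880 of 18704) were fitted with limma 3.58.1 in R 4.3.3, as 6 group means with a shared spread, and p-values were adjusted by Benjamini-Hochberg over all of them at 0.05. Exact two-sided permutation tests over arrays were computed per gene. No array had values near identical to another. All 10 immediate early genes are named. For each list the naming rule took up to 4 genes that passed a celastrol comparison. With none, it took the 2 with the smallest unadjusted p on the average. Of the genes it took, Gap43, Gad1, Gfap, Aldh1l1, Mobp, Olig1 and Cga are not described above. The 8 tested genes most like the mean of the 5 tested members are also named. Predicted and non-coding genes count but are not named. The hypothalamic peptide genes beside the marker check were picked with their values in view. The 10 genes and the lists (other immediate early, delayed activity-regulated and upstream genes, and markers of neurons, hypothalamus, astrocytes, microglia and macrophages, endothelial and mural cells, oligodendrocytes, pituitary and choroid plexus) were chosen with earlier results of these data known. The fit was tested on simulated data. Other filters, summaries of probe sets, scalings, variance models, a replicate block and leaving out single arrays were tried as alternatives.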

Additional observations from a re-analysis of the deposited data

Results flagged for a closer look

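In 4 of 40 groups of 4 arrays checked for the 10 genes, 1 array stood far from the other 3, where chance gives about 1 in 20. For Fosb, celastrol 6 h replicate 3 had 7.92, with the other 3 between 8.04 and 8.05. For Npas4, celastrol 6 h replicate 2 had 7.96, with the others between 8.13 and 8.15. For Fosl2, DMSO 6 h replicate 2 had 8.47, with the others between 8.72 and 8.77. For Nr4a1, DMSO 1 day replicate 1 had 8.72, with the others between 9.08 and 9.10.

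In 3 of 30 comparisons of the celastrol effect between times, every celastrol array lay on one side of the DMSO mean at one time and on the other side at the other time. The Nr4a1 effect at 4 days minus that at 6 h was 0.26 (adjusted p = 0.997, limma), with 3 of 3 celastrol arrays above the DMSO mean at 4 days and 0 of 4 at 6 h. For Nr4a1, 4 days minus 1 day gave 0.30 (adjusted p = 0.795, limma), with 0 of 3 above it at 1 day. The Nr4a2 effect at 4 days minus that at 6 h was -0.30 (adjusted p = 0.997, limma), with 4 of 4 above it at 6 h and 0 of 3 at 4 days. None of these 3 passed over all genes tested.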

How the results depend on the processing

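Precision is limited by 3 or 4 arrays a group and, for the 5 genes below the filter, by their level. Of 2106 alternative values for 62 results of the 10 genes, 2056 kept direction and call, 43 changed sign (in 16 results, with main differences of 0.10 or less) and 7 newly passed, those named above for Fosl2, Egr1 and Nr4a1 and, without the 2 least typical arrays, Nr4a1 between DMSO at 4 days and 1 day (-0.34, adjusted p = 0.0217, limma). Leaving out the 2 least typical arrays was chosen after seeing the data. The cause of these changes was not tested.

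Signs turned under median centring for Fos at 6 h (-0.0037), Junb between DMSO at 1 day and 6 h (-0.011) and Arc between DMSO at 4 days and 6 h (-0.0081). Array weights turned Fosl2 at 6 h (-0.014), Fosb at 1 day (0.032) and Arc at 4 days (-0.017). A repeated quantile normalization turned Junb (0.013) and Arc (-0.010) between DMSO at 4 days and 6 h, and Junb between 4 days and 1 day (0.012). Without the 2 least typical arrays Junb turned at 1 day (-0.045), between DMSO at 1 day and 6 h (-0.016) and between 4 days and 1 day (0.013). Leaving out single arrays gave ranges that crossed 0 for Fos at 6 h (-0.11 to 0.075) and 4 days (-0.013 to 0.21), Fosl2 at 6 h (-0.050 to 0.048), Fosb at 1 day (-0.12 to 0.051), Junb at 1 day (-0.072 to 0.12) and 4 days (-0.16 to 0.058), Arc at 1 day (-0.12 to 0.021) and 4 days (-0.062 to 0.12), Egr2 at 4 days (-0.020 to 0.16) and Nr4a2 at 4 days (-0.11 to 0.038). Among DMSO arrays they crossed 0 for Junb between 1 day and 6 h (-0.019 to 0.068), 4 days and 6 h (-0.033 to 0.028) and 4 days and 1 day (-0.070 to 0.013), for Arc (-0.015 to 0.028) and Npas4 (-0.026 to 0.12) between 4 days and 6 h, and for Egr2 between 4 days and 1 day (-0.024 to 0.064).

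Counts over all genes moved more. At 1 day (0 genes) there were 1 with no filter, 5 with array weights and 5 with the residual component. At 4 days (5 genes) there were 3 with no filter, 3 after quantile normalization, 8 with limma-trend, 1 with robust eBayes, 16 with array weights and 13 with the residual component. The average (6 genes) had 1 under the stricter filter, and the difference between 4 days and 1 day (0 genes) had 1 with the residual component. DMSO at 1 day against 6 h (0 genes) had 10 under the stricter filter, 12 with limma-trend, 10 with robust eBayes, 13 with array weights, 30 with the residual component and 2 without the least typical arrays. DMSO at 4 days against 6 h (25 genes) had 1 with no filter, 45 with limma-trend, 105 with array weights, 115 with the residual component, 0 with only the groups compared and 52 without the least typical arrays. DMSO at 4 days against 1 day (15 genes) had 1 with no filter, 24 under the stricter filter, 29 with the mean of probe sets, 37 after quantile normalization, 47 with limma-trend, 25 with robust eBayes, 168 with array weights, 106 with the residual component, 0 with only the groups compared and 5 without the least typical arrays. Of the 10 genes, 1 passed at 4 days with array weights, and between DMSO at 4 days and 1 day 2 passed with array weights, 1 with the residual component and 1 without the least typical arrays.

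With single arrays left out, counts over all genes ranged from 0 to 2 at 1 day, 0 to 9 at 4 days, 2 to 9 on the average, 0 to 1 for the difference between 4 days and 6 h, 0 to 46 for DMSO at 1 day against 6 h, 0 to 147 for 4 days against 6 h and 1 to 28 for 4 days against 1 day, and 0 in the other comparisons. The highest counts against DMSO at 6 h, 46 and 147, both came without DMSO 6 h replicate 3. The 10 genes had 0 to 1 called at 4 days and between DMSO at 4 days and 1 day, and 0 elsewhere. With the replicate number as a block there were 1 gene at 1 day, 0 at 4 days and 1 between DMSO at 1 day and 6 h, and the block left the calls of the 10 genes at 0. The labels do not say whether same-numbered arrays were handled together. Their deviations correlated at -0.24 to 0.41, above 0.1 in 2 of 10 pairs. Both were at 6 h, with 0.41 for replicate 3 and 0.18 for replicate 2. So few pairs, from groups of 3 or 4 arrays, cannot decide whether the numbers pair the samples.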
